A study of Sus scrofa with 70 samples.

Results

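The swine major histocompatibility complex (MHC) genes named in the deposited annotation were described across 5 reproductive glands of boars of 2 breeds. Members were all genes whose name begins with SLA- (swine leukocyte antigen), together with B2M, CIITA and NLRC5. This gave 7 of the 35552 genes and 30 of the 133722 transcripts that were above 0 in at least 1 library. SLA-DMA, SLA-DMB, SLA-DOA and SLA-DQB1 were the 4 names beginning with SLA-, and all belong to class II. Class I was therefore represented by 2 genes, B2M and NLRC5, and class II by 5 genes, the 4 SLA- genes and CIITA. The classical class I heavy chain genes carry no SLA- name in the annotation and are not among the members. All 7 members passed the filter on low values, as did 20 of their 30 transcripts.

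Libraries were made from 3 accessory glands, namely the bulbourethral (BG), prostate (PG) and vesicular gland (VG), and from epididymis (Epi) and testis (Tes) of boars aged 12 months, with no treatment named. The breeds were Diannan small-ear pigs (DSE), which are not inbred, and the Banna mini-pig inbred line (BMI), which was bred from DSE by mating full sibs or parents with offspring. Each breed and gland had 3 short-read RNA-seq libraries, quantified as the length-corrected number of transcripts of a kind per 1000000 transcripts (TPM), and 1 Iso-seq library of full-length reads, so that a gland had 6 RNA-seq libraries and a breed 15. The sources used here do not say which libraries came from the same boar, so p-values measure the spread between these libraries, which may in part be technical.

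MHC class I molecules consist of a heavy chain and β2-microglobulin, the product of B2M, and display peptides made inside almost any nucleated cell to cytotoxic T cells. NLRC5 is the transactivator of class I genes. Class II molecules, such as DQ with its β chain encoded by SLA-DQB1, are found mainly on dendritic cells, macrophages and B cells and display peptides from material the cell has taken up. CIITA is the master regulator of class II genes, DM (SLA-DMA and SLA-DMB) exchanges the placeholder peptide for others, and DO (SLA-DOA is its α chain) restrains DM. In the male tract these molecules are of interest because sperm carry antigens that appear only after the immune system has matured.

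In Sscrofa11.1 coordinates, B2M (ENSSSCG00000051899) lies on the reverse strand of chromosome 1 at chr1:126864396-126871552. NLRC5 (ENSSSCG00000039751) lies on the forward strand at chr6:18937677-19036820, and CIITA (ENSSSCG00000007901) on the reverse strand at chr3:32172214-32230780. The 4 SLA- genes lie on the reverse strand of chromosome 7. These are SLA-DQB1 (ENSSSCG00000001457) at chr7:24963208-24977386, SLA-DMB (ENSSSCG00000001469) at chr7:25119139-25128236, SLA-DMA (ENSSSCG00000001470) at chr7:25133497-25137966 and SLA-DOA (ENSSSCG00000001472) at chr7:25178884-25182707.

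The sequences below were read from the RefSeq genome of Sscrofa11.1. They show part of how the SLA-DQB1 transcript that differed between breeds is spliced, beside the main transcript. The first is a coding exon of 270 bases at chr7:24975460-24975729, the second exon of the main transcript, which encodes the β1 domain that forms part of the peptide groove. It is present in 5 of the 6 annotated SLA-DQB1 transcripts and absent from ENSSSCT00000047302. The other lines are spliced junctions, each with the last 15 bases of the upstream exon in lower case and the first 15 bases of the downstream exon in capitals. In ENSSSCT00000047302 the first exon is joined straight to the exon that follows the one left out. The 2 transcripts also differ elsewhere. ENSSSCT00000047302 has a first exon of 308 bases against 192, lacks the exons of 118 and 37 bases, and ends in an exon of 14 bases. Which of these differences led reads to be assigned to it was not tested.
SLA-DQB1 exon of 270 bases: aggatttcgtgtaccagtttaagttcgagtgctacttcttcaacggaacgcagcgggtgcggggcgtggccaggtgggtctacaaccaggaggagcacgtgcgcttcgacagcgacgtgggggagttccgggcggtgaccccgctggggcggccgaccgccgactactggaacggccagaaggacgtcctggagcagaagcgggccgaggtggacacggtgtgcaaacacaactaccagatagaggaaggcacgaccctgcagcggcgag
ENSSSCT00000085744, first junction: gcagagactctccacAGGATTTCGTGTACC
ENSSSCT00000085744, second junction: ccctgcagcggcgagTGCAACCTACAGTGA
ENSSSCT00000047302, junction over the exon left out: gcagagactctccacTGCAACCTACAGTGA

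Promoters were searched from 250 bases before to 50 bases after the start of the member's transcript of highest TPM, because the class II members varied together across glands as given below. The motifs were the X box, taken as CC, G, AC and TG with 2, 2 and 3 free bases between them, the Y box as GATTGG, and an interferon-stimulated response element (ISRE) as GAAA, 2 free bases and GAAA, each on both strands. Over 19326 promoters of the same length, the X box was found in 4.05%, the Y box in 16.9%, the ISRE in 3.11%, and both X and Y in 0.740%. An X box followed by a Y box within 40 bases on the strand of the gene was found in 12 promoters, 2 of them members. In SLA-DMA the pair lies from 65 to 22 bases before the start, at chr7:25137988-25138031 on the reverse strand, with 24 bases between the boxes, which are in capitals here.
SLA-DMA, X and Y boxes: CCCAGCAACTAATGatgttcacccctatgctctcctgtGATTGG

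In SLA-DQB1 the X box CCCAGAGACAGATG and the Y box GATTGG were separated by 23 bases, with the Y box starting 57 bases before the start. SLA-DOA held the X box CCCTGGCACAAGTG and a Y box farther apart, SLA-DMB held an X box on the other strand, and the promoter of CIITA held none of the 3 motifs. For CIITA only the start of PB.11879.4, with 26.1% of CIITA TPM, was searched. ENSSSCT00000047795, with 25.7%, starts elsewhere and its promoter was not searched. NLRC5 held an ISRE on the other strand, after its start. In B2M the ISRE letters occurred as 2 overlapping matches in GAAAATGAAACTGAAA, at chr1:126871682-126871697 on the reverse strand, 148 to 133 bases before the start, together with 2 Y boxes. These matches describe letters in the reference genome and say nothing of which factor was bound.

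Some facts of the libraries bear on all results below. The 10 most abundant transcripts held 47.3% to 64.7% of all TPM in VG and 41.4% to 56.2% in PG, but 9.24% to 22.0% in Epi and 12.7% to 19.9% in Tes. TPM is a share of the library, so values were also compared after division by size factors (median of ratios), which ranged from 0.385 to 1.65. The median log2 difference of all tested genes between VG and the mean of the other 4 glands was -0.69 with TPM and -0.20 after size factors. Spermatid and spermatocyte markers summed to a median of 71109 TPM in Tes and 80.4 TPM in Epi, and 370695 to 496295 TPM in VG came from its own secretory markers. Of 5 epididymis marker models 4 were higher in Epi and none lower, although their sum had a median of 2976 TPM in Epi against 4336 TPM in VG, and no marker list was available for BG. BMI PG replicate 2 stood apart. It held 301319 TPM of the vesicular gland markers and, at 89094 TPM, the lowest sum of prostate markers among the PG libraries, so the results of the members in PG are also given without it.

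B2M was by far the most abundant member and had its highest level in Epi. Its TPM, as lowest, median and highest of the 6 libraries, was 2602, 3487 and 5294 in Epi. It was 1030, 1423 and 2996 in BG and 813, 1385 and 2185 in PG. It was 352, 507 and 836 in Tes and 313, 468 and 996 in VG. Every Epi library but BMI replicate 2 and DSE replicate 1 lay above all other libraries. In terms of the mean, the order was Epi (3675 ± 1069 TPM, SD, n = 6), BG (1593 ± 733), PG (1397 ± 497), Tes (563 ± 208) and VG (555 ± 262), with 1 SD about the mean not overlapping between Epi and BG or between PG and Tes.

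NLRC5 was the least abundant member, with a mean of 1.81 TPM over all libraries. Its mean was 2.75 ± 0.957 TPM in PG, 2.53 ± 1.93 TPM in Epi and 2.35 ± 1.28 TPM in BG (SD, n = 6). It was 0.844 ± 0.595 TPM in VG and 0.556 ± 0.152 TPM in Tes. In Tes no library exceeded 0.742 TPM, while the ranges of the other 4 glands overlapped each other.

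CIITA, the regulator of the class II genes, followed a similar order at low levels. Its TPM, as lowest, median and highest, was 2.90, 6.15 and 9.97 in PG, 1.95, 4.41 and 8.43 in BG, and 1.34, 3.56 and 10.3 in Epi. It was 0.954, 1.81 and 2.71 in VG and 0.559, 0.763 and 1.28 in Tes. All PG libraries lay above all VG and all Tes libraries, and Tes held the lowest values.

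SLA-DQB1, the β chain of DQ, was the most abundant class II member, with a mean of 172 TPM over all libraries. Its TPM was 184, 301 and 499 in BG, 132, 219 and 398 in PG, and 50.4, 176 and 512 in Epi as lowest, median and highest. It was 31.3, 58.6 and 110 in VG and 26.7, 42.4 and 75.4 in Tes. All BG and all PG libraries lay above all VG and Tes libraries. Epi spread over about the whole range, from BMI replicate 3 at 50.4 TPM to BMI replicate 1 at 512 TPM. Between them lay DSE replicate 1 at 97.6 TPM, BMI replicate 2 at 113 TPM, DSE replicate 3 at 238 TPM and DSE replicate 2 at 265 TPM.

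The DM and DO genes were, like SLA-DQB1, higher in BG, PG and Epi than in VG and Tes by mean, at lower levels. SLA-DMA, the α chain of DM, ranged from 28.7 to 58.4 TPM in BG (median 33.5), 9.70 to 59.1 TPM in Epi (27.7), 13.4 to 48.2 TPM in PG (28.3), 3.25 to 11.3 TPM in VG (5.39) and 5.14 to 9.32 TPM in Tes (6.21). SLA-DMB, the β chain of DM, had 9.85 ± 4.69 TPM in BG, 7.32 ± 2.93 TPM in PG and 7.32 ± 4.64 TPM in Epi, against 1.65 ± 0.777 TPM in VG and 1.58 ± 0.641 TPM in Tes (mean ± SD, n = 6). SLA-DOA had 8.83 ± 3.46 TPM in BG, 7.46 ± 2.05 TPM in PG and 6.60 ± 4.58 TPM in Epi, against 1.75 ± 0.771 TPM in VG and 0.998 ± 0.285 TPM in Tes. For all 3 genes the upper 3 glands overlapped each other, as did VG and Tes. The ratio of SLA-DMA to SLA-DMB, whose products pair in one molecule, stayed between 3.05 and 5.75 in every library, with gland means from 3.90 to 4.44. In the orders of glands by mean, SLA-DMA in PG and VG was the only pair of neighbours among the 7 members whose ranges did not overlap. They ran from 13.4 to 48.2 TPM and from 3.25 to 11.3 TPM.

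The sum of the class II members spread widely among the Epi libraries. Their summed TPM was 610, 148 and 65.4 in the BMI libraries and 122, 330 and 290 in the DSE libraries. BMI Epi replicate 1 held the highest Epi value of each of the 5 class II members, of NLRC5 and of B2M. It also held the highest macrophage marker sum of all 30 libraries, 651 TPM, and the highest vesicular gland marker sum of Epi, 5383 TPM against 3.13 to 1094 TPM in the other 5 Epi libraries. The part of either in its MHC values was not tested.

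**Figure D1:**
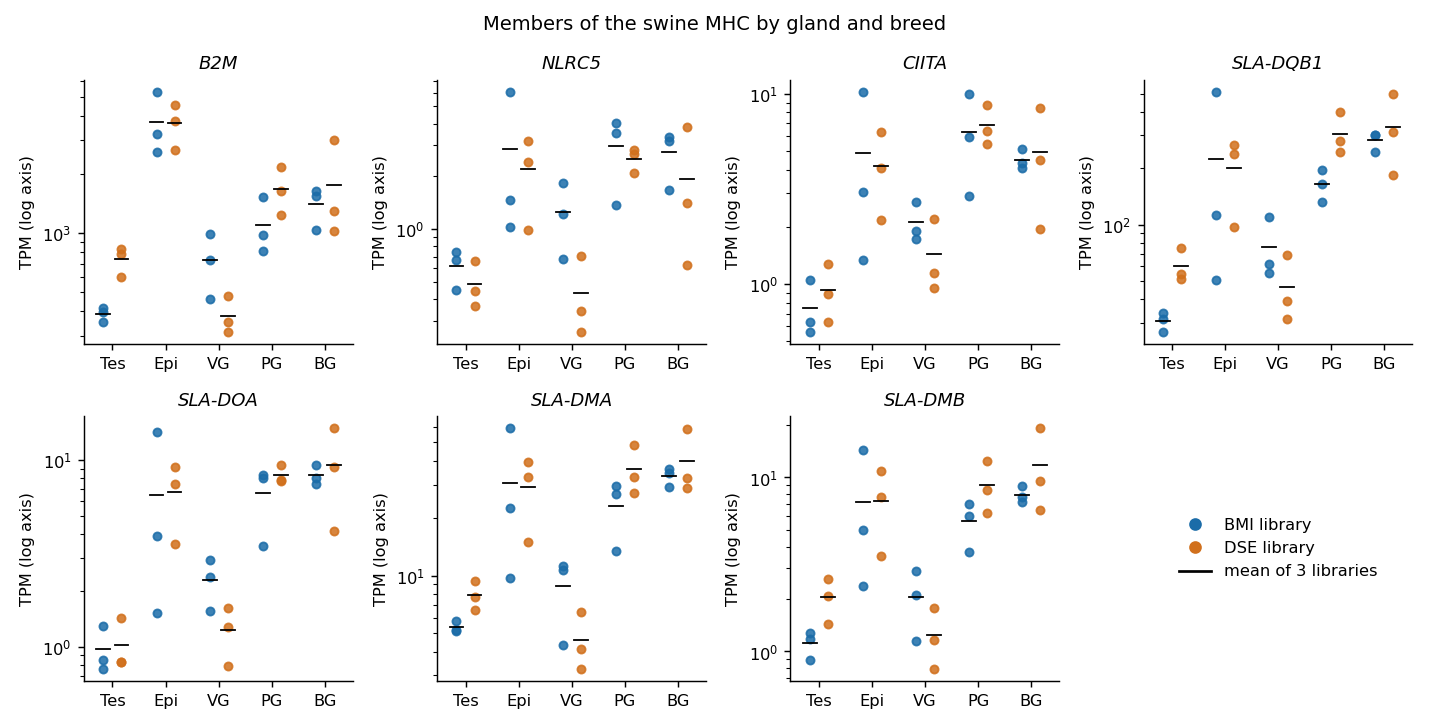
TPM of the 7 MHC members (log axis) by gland, with 1 point per RNA-seq library (BMI blue, DSE orange) and a black bar at the mean of the 3 libraries of a breed and gland. B2M is highest in Epi, from 2602 to 5294 TPM, whereas SLA-DQB1, SLA-DMB and SLA-DOA have their highest mean in BG, and class II members are low in Tes and VG.

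Each gland was compared with the mean of the other 4 glands by limma on log2(TPM + 1), which understates the changes of low genes such as NLRC5. A gene was called at a Benjamini-Hochberg adjusted p below 0.05 and an absolute log2 difference of at least 1. The 5 comparisons share libraries and are not independent of each other. After size factors the shares of all genes called higher and lower, against which the counts after size factors are read, were 31.4% and 15.7% in Tes, 8.57% and 9.15% in Epi, 7.24% and 12% in VG, and 6.46% and 13.3% in BG, and 4.6% were higher in PG. In bulk tissue, fewer cells of a type and less RNA per cell cannot be told apart.

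In Tes, 6 of the 7 members were lower (1 of 2 in class I and 5 of 5 in class II), where 12.7% of all genes were lower and 34.6% higher. SLA-DQB1 was 3.61-fold lower (log2 -1.85 ± 0.30, SE, limma adjusted p = 4.55e-06) and SLA-DOA 3.04-fold lower (-1.60 ± 0.26, adjusted p = 4.41e-06). B2M was 2.58-fold lower (-1.37 ± 0.20, adjusted p = 1.11e-06). The log2 differences of SLA-DMA, CIITA and SLA-DMB were -1.49, -1.38 and -1.31. NLRC5 had a log2 difference of -0.87 ± 0.23 (adjusted p = 0.00135), short of the fold required. After size factors the same 6 members were called, with log2 differences from -2.10 to -1.43.

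In Epi, B2M was the 1 member called, 4.15-fold higher (log2 2.05 ± 0.20, SE, limma adjusted p = 7.85e-09), while 15.1% of all genes were higher and 6.56% lower. The class II members had log2 differences of 0.37 (CIITA), 0.53 (SLA-DOA and SLA-DQB1), 0.60 (SLA-DMB) and 0.78 (SLA-DMA), none past the fold required. After size factors B2M was called at 1.54, and the class II values were -0.03 for CIITA and 0.02 to 0.29 for the SLA- genes. Without BMI Epi replicate 3, the library with the lowest class II sum of the gland, SLA-DMA was called as well, which made 2 members.

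In VG, 5 of the 7 members were lower (1 of 2 in class I and 4 of 5 in class II), against 30.1% of all genes lower and 2.95% higher. SLA-DMA was 3.02-fold lower (log2 -1.59 ± 0.26, SE, limma adjusted p = 7.69e-06) and B2M 2.72-fold lower (-1.44 ± 0.20, adjusted p = 9.06e-07). SLA-DQB1, SLA-DMB and SLA-DOA had log2 differences of -1.35, -1.28 and -1.07. These calls depended on the scaling. After size factors no member was called by limma in VG, and the log2 differences shrank to -0.84 for SLA-DMA, -0.71 for SLA-DMB, -0.59 for B2M, -0.51 for SLA-DQB1 and -0.50 for SLA-DOA. Their adjusted p-values were then 0.000661 to 0.0463, and their sizes were short of the fold required. With TPM as deposited, SLA-DOA also missed that fold without BMI Epi replicate 1 (-0.98), BMI VG replicate 3 (-0.98) or DSE VG replicate 1 (-0.99).

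In PG, CIITA (log2 1.09 ± 0.26, SE, limma adjusted p = 0.00101) and SLA-DQB1 (1.08 ± 0.30, adjusted p = 0.00400) were higher, which makes 2 of 5 class II members and 0 of 2 in class I. Of all genes 3.7% were higher and 12.8% lower. SLA-DOA (0.96) and SLA-DMA (0.94) lay just under the fold required. Both were called, beside CIITA and SLA-DQB1, after size factors and also without BMI PG replicate 2, and 4 members were called without BMI Epi replicate 1. Without BMI PG replicate 2 the log2 differences were 1.29 for CIITA, 1.16 for SLA-DQB1, 1.13 for SLA-DOA and 1.11 for SLA-DMA. CIITA was not called without BMI PG replicate 3 (0.91), nor SLA-DQB1 without BMI Epi replicate 3 (0.99) or DSE PG replicate 1 (0.98). B2M had a log2 difference of 0.28 (adjusted p = 0.261) and NLRC5 of 0.68 (adjusted p = 0.0156).

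In BG, the 4 SLA- genes were higher, so 4 of 5 class II members and 0 of 2 in class I, against 8.45% of all genes higher and 12% lower. SLA-DQB1 was 3.02-fold higher (log2 1.59 ± 0.30, SE, limma adjusted p = 8.08e-05), SLA-DMA 2.58-fold (1.36 ± 0.26), SLA-DMB 2.33-fold (1.22 ± 0.24) and SLA-DOA 2.28-fold (1.19 ± 0.26). All 4 were also called after size factors, from 1.01 to 1.37. CIITA had a log2 difference of 0.58 (adjusted p = 0.0568) and B2M of 0.48 (adjusted p = 0.0458). The DQ, DM and DO genes were thus called in BG and B2M in Epi, but whether the gland pattern of B2M differs from that of the class II members was not tested.

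**Figure D2:**
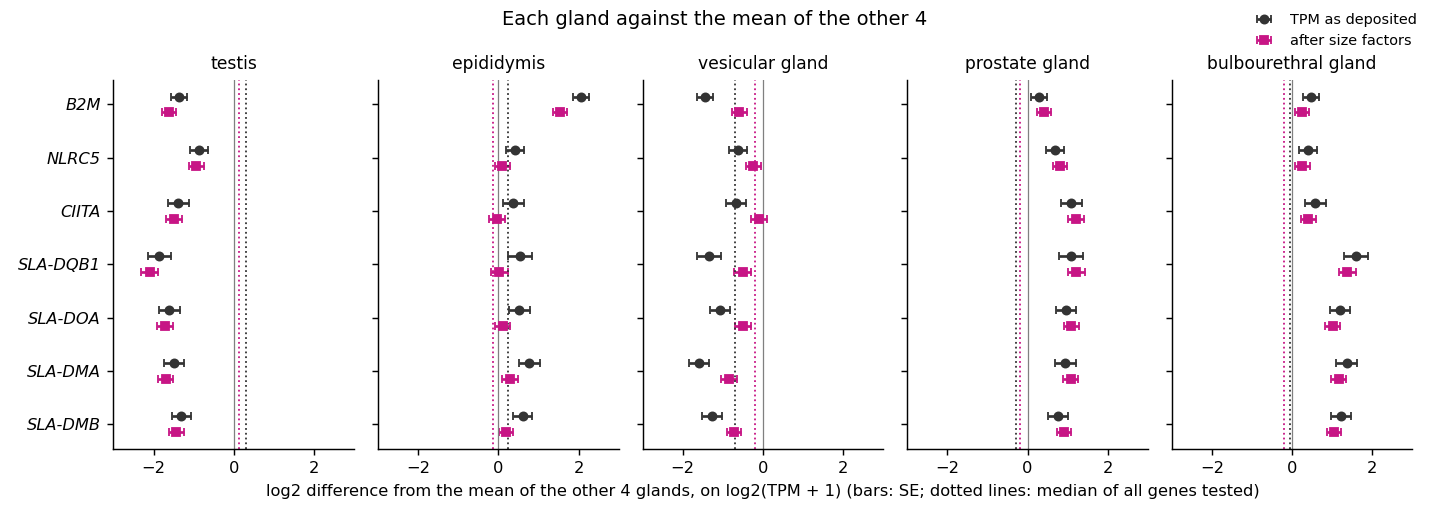
Log2 difference of each member between a gland and the mean of the other 4 glands on log2(TPM + 1), with TPM as deposited (black) and after size factors (magenta); bars are standard errors from limma and dotted lines the median of all tested genes. SLA- genes lie above 1 in BG under both scalings, while in VG the values from -1.59 to -1.07 of the 5 called members move toward 0 after size factors.

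The sum of macrophage markers varied with that of the class II members over the libraries. Of 8 markers, 6 were higher in BG, 1 in each of Epi, PG and VG, 5 were lower in Tes and 4 in VG, and all 8 reached 1 TPM. Of all genes 8.45% were higher in BG, 15.1% in Epi, 3.7% in PG and 2.95% in VG. Lower were 12.7% in Tes and 30.1% in VG. After size factors the counts were 5 higher in BG, 1 higher in each of Epi, PG and VG, 6 lower in Tes and none lower in VG. Their sum ranged from 179 to 625 TPM in BG, 105 to 379 TPM in PG, 73.2 to 651 TPM in Epi, 29.2 to 200 TPM in VG and 45.1 to 100 TPM in Tes. Over the 30 libraries the log2 sum of the 5 class II members correlated with that of the macrophage markers at r = 0.90, and B2M did so at r = 0.74. This is a description over libraries that share glands and the TPM scale. The part of macrophage number in the class II differences was not tested.

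**Figure D3:**
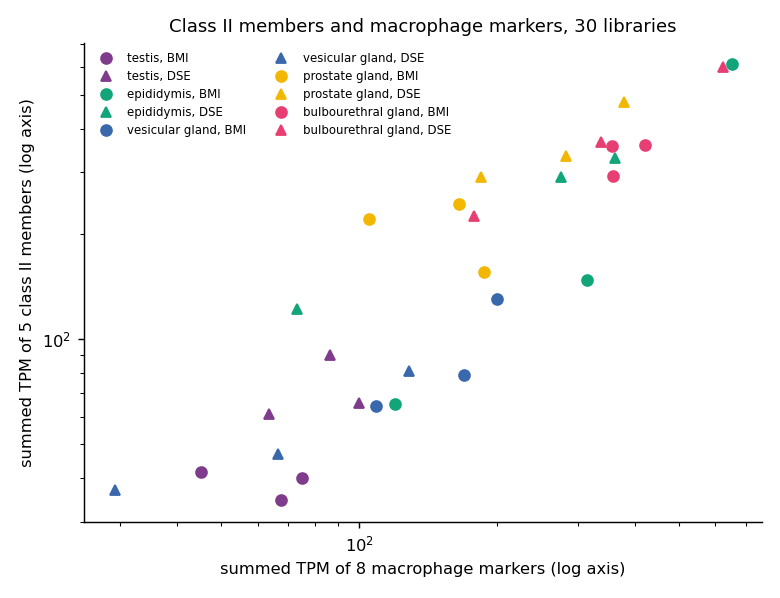
Summed TPM of the 5 class II members against summed TPM of 8 macrophage markers in the 30 RNA-seq libraries, both on log axes, with glands and breeds marked. All BG and PG libraries lie above all VG and Tes libraries in class II TPM, and Epi spans both ranges, up to 651 TPM of macrophage markers in BMI Epi replicate 1.

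Markers of other cell types were examined in the same way, with counts to be read against the shares of all genes called, among them 34.6% higher and 12.7% lower in Tes and 30.1% lower in VG. Of 7 B cell markers 4 were tested, with median sums from 1.07 TPM in PG to 6.65 TPM in Tes. MS4A1, which encodes CD20, had a mean below 1 TPM in every gland, and BLK alone was called, higher in Tes by 1.94. Of the 2 dendritic cell markers tested of 6, BATF3 was lower in VG (-1.08), and XCR1 and CCR7 had means below 1 TPM in every gland. Plasma cell markers were highest in BG, where 3 of 4 were called, with JCHAIN, which joins IgA monomers into dimers, at 3.90, MZB1 at 1.49 and POU2AF1 at 1.07. MZB1 was also higher in Epi (1.41) and lower in Tes (-1.71) and PG (-1.32), and JCHAIN was lower in VG (-2.00) and PG (-1.26). Their sum had a median of 122 TPM in BG, with a range from 24.1 to 291 TPM, and medians from 4.40 to 15.1 TPM elsewhere. Of 5 T cell markers tested CD247 was higher in Tes (3.90) and BG (1.10), 1 was lower in Epi and 2 in VG, and after size factors 1 was higher in Tes, 1 lower in each of Epi and VG and none called in BG. Of 4 cytotoxic lymphocyte markers tested GZMK was higher in Tes (1.3). Of 6 endothelial markers 1 was lower in Tes and 2 in VG, which is near the shares of all genes, and after size factors 3 were lower in Tes, none was called in VG and 1 was higher in PG. Without BMI PG replicate 2 the PG counts of these lists were the same, but for 1 endothelial marker higher and 1 macrophage marker lower. All 5 epithelial markers were lower in Tes, with a median log2 difference of -6.06, and 4 were higher in Epi, 2 in VG, 4 in PG and 5 in BG, against 5 lower in Tes and 0, 3, 4 and 5 higher after size factors. For the B cell markers 1 was higher in VG after size factors besides 1 in Tes, no dendritic cell marker was then called, and the counts of plasma cell and cytotoxic markers were the same. The correlation of the class II sum over the 30 libraries was 0.81 with endothelial, 0.76 with cytotoxic, 0.68 with epithelial, 0.61 with dendritic, 0.50 with plasma, 0.02 with T cell and -0.24 with B cell marker sums.

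Of 14 genes tested that supply and load class I peptides, 5 were lower in Tes (median log2 difference -0.92), among them PSMB8, a subunit of the immunoproteasome (-1.39), and TAP1, of the peptide transporter (-1.23). In Epi 6 were higher (median 0.97), among them PSME2, of the activator of the proteasome (1.14), and the chaperones CALR (1.15) and CANX (1.06). In VG 3 were lower, PSMB9 (-1.23), PSME2 (-1.18) and PSMB8 (-1.02), with a list median of -0.70, and none was called in PG or BG. Of all genes 12.7% were lower in Tes, 15.1% higher in Epi and 30.1% lower in VG, where their median was -0.69, so the list in VG lay near all genes. After size factors 9 were lower in Tes and none was called in the other 4 glands, so the Epi and VG counts depended on the scaling.

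Among 6 genes tested for class II supply and loading, CD74, the invariant chain that occupies the groove until the endosome, was lower in Tes (-1.94) and VG (-1.15) and higher in PG (1.34) and BG (1.13), with means of 117 ± 31.1 TPM in Tes, 189 ± 75.8 TPM in VG, 548 ± 344 TPM in Epi, 737 ± 213 TPM in PG and 656 ± 212 TPM in BG (SD, n = 6). CTSS, the protease that trims CD74, was lower in Tes (-1.72) and VG (-1.24) and higher in Epi (1.32) and BG (1.36). LGMN, a protease of the endosome, was higher in Tes (1.42) and Epi (1.67) and lower in VG (-1.72) and PG (-1.35), CTSL, another protease, was higher in VG (1.34) and lower in BG (-1.28), and IFI30, a thiol reductase, was higher in Epi (1.41). In all, 1 was higher and 2 lower in Tes, 3 and 0 in Epi, 1 and 3 in VG, 1 and 1 in PG, and 2 and 1 in BG. After size factors these counts were 1 and 2, 1 and 0, 1 and 0, 1 and 1, and 1 and 1. With TPM as deposited, 34.6% of all genes were higher and 12.7% lower in Tes. These shares were 15.1% and 6.56% in Epi, 2.95% and 30.1% in VG, 3.7% and 12.8% in PG, and 8.45% and 12% in BG.

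Of 10 regulators of MHC transcription tested, RFXANK, a subunit of the RFX complex that binds the X box, was higher in Tes (1.78), as was NFYA, of the NF-Y complex that binds the Y box (1.77). IRF1, an interferon-induced activator, was lower in Tes (-1.83) and higher in Epi (1.16), and IRF2 was lower in Tes (-1.03). In VG 3 of 10 were lower, IRF8 (-1.49) and NFYB (-1.15) among them, where 30.1% of all genes were, and none was called in PG or BG. After size factors the Tes counts stayed at 2 and 2 and none was called in Epi or VG. Of 16 interferon response genes, 9 were lower in Tes, with CXCL10 at -2.28, and 10 were higher in Epi, with IFIT2 at 1.97 and IFIT3 at 1.85. In VG 1 was higher and 1 lower, and none was called in PG or BG. Of all genes 34.6% were higher and 12.7% lower in Tes, 15.1% were higher in Epi, and 2.95% were higher and 30.1% lower in VG. After size factors 9 were lower in Tes, 2 higher in Epi and 2 higher in VG. Without BMI PG replicate 2, 1 of the 16 was lower in PG, and the PG counts of the supply genes and regulators were the same. The correlation over the 30 libraries of the sum of the interferon response genes was 0.81 with B2M and 0.58 with the class II sum, and that of the class I supply genes was 0.76 and 0.49. For class II supply it was 0.85 and 0.86, and for the regulators 0.47 and 0.37.

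The genes most like each member were taken by Pearson's r of log2(TPM + 1) over the 30 libraries, as a description. SLA-DQB1 was followed most closely by ENSSSCG00000001456, which overlaps SLA-DQA1 of RefSeq (0.99), by HLA-DRA (0.99) and by a joined model over SLA-DRB1 (0.99), then by SLA-DMB (0.98) and ENSSSCG00000001455, matched to SLA-DRB1 (0.97). CIITA was followed by CD74 (0.95), SLA-DOA (0.95), ARID5A (0.95), DGKZ (0.94) and a joined model (0.94). For NLRC5 they were ARAP3 (0.94), CD34 (0.93), CIITA (0.93), ENSSSCG00000035224 (0.92) and SASH3 (0.92). For B2M they were MAP4K1, ENSSSCG00000004687 and ADCY7 (0.93 each), ENSSSCG00000001229, matched to SLA-3 (0.92), and SP140 (0.92). ENSSSCG00000004687 is a further B2M model at chr1:126835143-126843922, with a mean of 196 TPM, and reads of the same sequence may be divided between it and B2M. Between members, r was 0.90 to 0.99 for pairs of class II genes and 0.68 to 0.82 for B2M with the others. For NLRC5 it was 0.84 to 0.93 with the class II genes and 0.73 with B2M.

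Between the breeds no member was called in any gland or over the 5 glands. The share of all genes called by limma was 0.384% over the 5 glands, 4.78% in Tes, 0.702% in Epi, 0.49% in VG, 0.596% in PG and 0.298% in BG. At an unadjusted p below 0.05, B2M passed in Tes and in VG and no other member passed anywhere. Of all genes 18.1% passed at that level in Tes, 7.14% in Epi, 12.1% in VG, 13.1% in PG, 3.96% in BG and 15.1% over the 5 glands, so 1 of 7 members in Tes or VG is near the share of all genes. After size factors B2M and SLA-DQB1 passed in Tes and NLRC5 over the 5 glands (interval 0.04 to 0.64), again with none called. The 95% intervals over the 5 glands bound the breed difference if the libraries are independent. They ran, for BMI minus DSE on the log2 scale, from -0.50 to 0.16 for B2M, from -0.42 to 0.42 for CIITA, from -0.09 to 0.66 for NLRC5 and from -0.81 to 0.17 for SLA-DQB1. For SLA-DMA they ran from -0.57 to 0.28, for SLA-DMB from -0.65 to 0.15 and for SLA-DOA from -0.47 to 0.38. Limma adjusted p-values over the 5 glands were 0.504 or above.

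B2M was lower in BMI in Tes and higher in BMI in VG, short of the threshold in both. In Tes it was 416, 352 and 396 TPM in BMI and 836, 781 and 598 TPM in DSE. In VG it was 996, 734 and 460 TPM in BMI and 313, 476 and 351 TPM in DSE. The breeds did not overlap in Tes and overlapped in VG. The log2 differences were -0.91 (95% interval -1.65 to -0.18, limma adjusted p = 0.143) in Tes and 0.89 (0.16 to 1.63, adjusted p = 0.318) in VG. After size factors they were -0.88 (-1.53 to -0.22) in Tes and 0.37 (-0.28 to 1.03) in VG, where the median of all genes moved from 0.27 to 0. A test of whether the breed difference varied over the 5 glands gave an adjusted p of 0.221 for B2M, at an unadjusted p of 0.0165, and called no member, where 2.94% of genes were called.

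In Tes, SLA-DQB1 was 31.2, 26.7 and 33.6 TPM in BMI and 54.5, 75.4 and 51.3 TPM in DSE. SLA-DMA was 5.78, 5.22 and 5.14 TPM in BMI and 7.74, 9.32 and 6.63 TPM in DSE. SLA-DMB was 1.19, 1.27 and 0.894 TPM in BMI and 2.10, 2.6 and 1.44 TPM in DSE. All 3, like B2M, were lower in every BMI than in every DSE library, while CIITA, NLRC5 and SLA-DOA overlapped. Of all genes 7.6% were lower in every BMI library in Tes. In PG, SLA-DQB1 was 195, 132 and 166 TPM in BMI and 398, 244 and 278 TPM in DSE, again without overlap, as were 29.6% of all genes in that direction. The differences were -0.95 (-2.05 to 0.15, limma adjusted p = 0.374) in Tes and -0.88 (-1.98 to 0.22, adjusted p = 0.471) in PG. Without BMI PG replicate 2, which held the 132 TPM, the PG difference was -0.73 (-1.98 to 0.51, limma adjusted p = 0.647), and no member was called between breeds in PG or over the 5 glands. No member was apart between the breeds in Epi, VG or BG, where 5.36%, 22.9% and 9.63% of all genes were, in either direction. In Epi, for example, CIITA was 10.3, 3.07 and 1.34 TPM in BMI and 2.18, 6.31 and 4.06 TPM in DSE.

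In mean, macrophage marker sums were lower in BMI than in DSE in Tes and PG, higher in VG and Epi, and about equal in BG, with overlapping ranges when all libraries were used. The 8 macrophage markers summed to 45.1 to 75.0 TPM in BMI and 63.4 to 100.1 TPM in DSE in Tes, 105 to 187 TPM in BMI and 184 to 379 TPM in DSE in PG, and 109 to 200 TPM in BMI and 29.2 to 129 TPM in DSE in VG. In Epi they summed to 120 to 651 TPM in BMI and 73.2 to 362 TPM in DSE, with means of 362 and 237 TPM, and in BG the means were 379 and 381 TPM. Without BMI PG replicate 2 the BMI sums in PG were 105 and 165 TPM, and the ranges did not overlap. All 8 markers were at 1 TPM or above in some library of each gland. In Tes the 7 Leydig and Sertoli markers summed to 18552 to 21748 TPM in BMI and 23904 to 63389 TPM in DSE, without overlap, whereas the 6 spermatid and spermatocyte markers overlapped, from 66570 to 84482 TPM and from 23194 to 100722 TPM. The part of these cells in the breed differences was not tested.

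**Figure D4:**
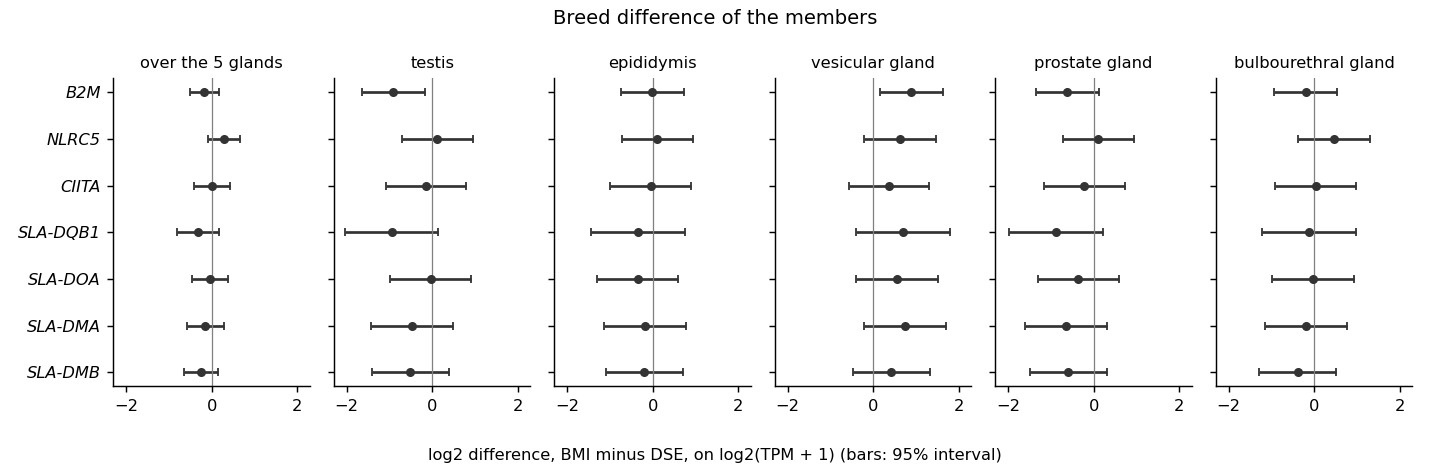
BMI minus DSE on log2(TPM + 1) for each member, over the 5 glands and within each gland, with 95% intervals from limma. With TPM as deposited, all intervals include 0 except those of B2M in Tes (-1.65 to -0.18) and VG (0.16 to 1.63), which were not called after adjustment.

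In the lists of related genes, none was called between the breeds over the 5 glands. Among genes of class II supply, LGMN (-2.12, limma adjusted p = 0.000141) and CTSL (-2.24, adjusted p = 0.00850) were lower in BMI in Tes. These were 2 of the 6 tested, where 4.78% of all genes were called in Tes. The only other call in immune lists was that of MZB1, a plasma cell gene, higher in BMI in Epi (1.9). It was 1 of 4 plasma cell genes tested, where 0.702% of all genes were called in Epi.

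At the transcript level, 1 of the 20 member transcripts tested was called over the 5 glands, where 0.626% of all transcripts were called. This was ENSSSCT00000047302 of SLA-DQB1, whose junction is printed above. It was listed at 0 in all 15 BMI libraries and above 0 in all 15 DSE libraries. In DSE it was 0.944, 0.947 and 1.17 TPM in Tes, 0.574, 4.29 and 4.47 TPM in Epi and 0.472, 0.496 and 1.11 TPM in VG. It was 3.88, 5.16 and 7.97 TPM in PG and 4.35, 6.60 and 9.01 TPM in BG. The difference over the 5 glands was -1.83 (95% interval -2.14 to -1.53, limma adjusted p = 9.17e-09), a value that depends on the pseudocount because BMI is at 0. The transcript passed the filter on low values through DSE libraries alone. Its intervals and p-values between breeds thus restate its level in DSE. Within glands, with BMI again at 0, it was called by limma in BG (-2.89, adjusted p = 1.34e-05), PG (-2.69, adjusted p = 4.86e-05) and Epi (-1.84, adjusted p = 0.00406). In Tes (-1.01, adjusted p = 0.0659) and VG (-0.74, adjusted p = 0.685) it was not. Without BMI PG replicate 2 it was still called in PG (-2.69, limma adjusted p = 0.000395). The breed difference varied over glands (limma interaction adjusted p = 0.0124), which was true of 2.62% of transcripts. With BMI at 0, this is the variation of the DSE libraries between glands.

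ENSSSCT00000047302 held 0.995% of SLA-DQB1 TPM over all libraries, which is 0 in BMI and 1.49% to 2.01% in the DSE groups. ENSSSCT00000085744, of 899 bases and 5 exons, held 58.3%, with a range over breed and gland groups from 53.8% to 77.4%. ENSSSCT00000001617, of 758 bases and 4 exons, held 30.4% (11.3% to 38.4%), and PB.17448.236, an isoform from Iso-seq, 9.49% (6.85% to 12.6%). ENSSSCT00000001617 was listed at 0 in 3 BMI and 2 DSE libraries. SLA-DQB1 is polymorphic in pigs and the reference is of another breed. Whether a base difference in the reads, or in the exon printed above, moves them between these transcripts was not tested.

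**Figure D5:**
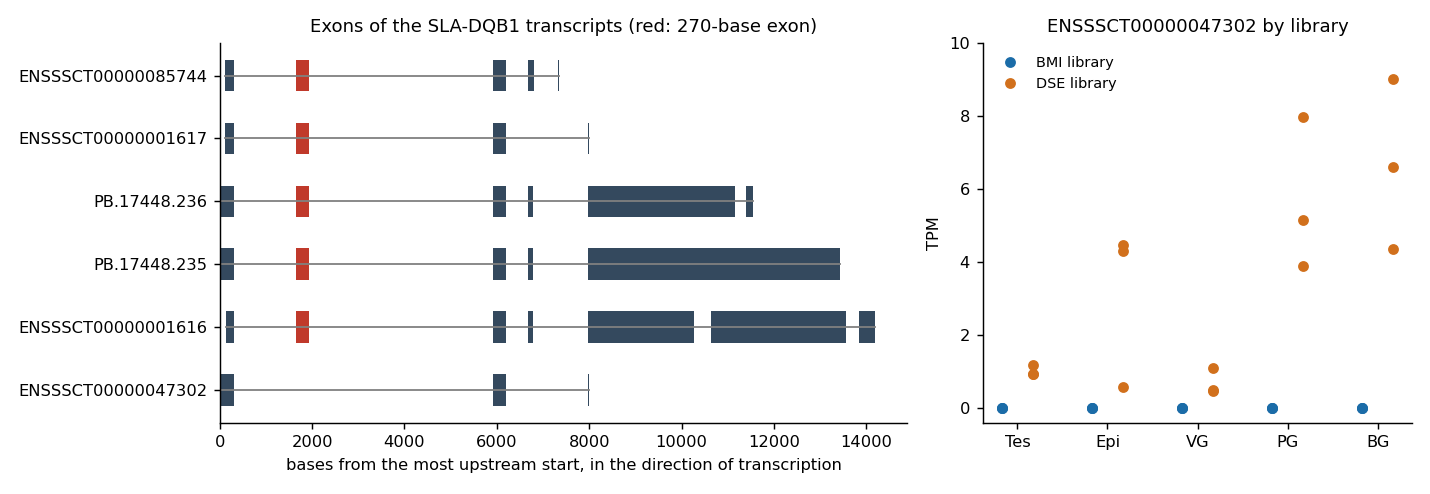
Left, exons of the 6 annotated SLA-DQB1 transcripts by distance in bases from the most upstream start, with the exon of 270 bases in red; right, TPM of ENSSSCT00000047302, which lacks that exon, in each library. The 15 BMI libraries are at 0 and the DSE libraries range up to 9.01 TPM in BG.

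Within single glands, 3 further member transcripts were called between breeds. In Tes, B2M transcript ENSSSCT00000087633 was 0, 4.75 and 14 TPM in BMI and 31.3, 72.4 and 75.1 TPM in DSE (log2 difference -3.68, limma adjusted p = 0.0345). In BG, B2M transcript ENSSSCT00000084189 was 0, 0.0731 and 0.214 TPM in BMI and 0.429, 2.88 and 3.21 TPM in DSE (-1.39, limma adjusted p = 0.0422). It reached at most 0.646 TPM in any BMI library, so it passed the filter on low values through DSE libraries alone. Also in BG, PB.17448.235 of SLA-DQB1 was at 0 in all 3 BMI libraries and at 1.2, 2.78 and 5.38 TPM in DSE (adjusted p = 0.0175). The full-length reads of this isoform went the other way, with 50 in the BMI and 18 in the DSE library of BG. By TPM all 3 were lower in BMI without overlap. Of all transcripts 4.97% were called in Tes, 0.713% in Epi, 0.333% in VG, 0.453% in PG and 0.435% in BG.

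Most other members were carried by a single transcript. Of B2M TPM, 76.6% lay on ENSSSCT00000005170 (73.3% to 80.4% over groups), 15.8% on the Iso-seq isoform PB.939.88 and 7.24% on ENSSSCT00000087633. NLRC5 lay to 99.7% on ENSSSCT00000065636, SLA-DMA to 99.3% on ENSSSCT00000001634, SLA-DMB to 93.1% on ENSSSCT00000001633 and SLA-DOA wholly on ENSSSCT00000001638. CIITA was divided over 8 transcripts. PB.11879.4 held 26.1% (9.28% to 42.8%), ENSSSCT00000047795 25.7% (19.5% to 38.2%) and PB.11879.5 19.3% (0 to 33.5%). ENSSSCT00000036772 held 12.7%, PB.11879.1 8.98% and ENSSSCT00000008657 6.80%. Isoforms from Iso-seq thus carried a good part of CIITA, and with the Ensembl transcripts alone CIITA was called in neither Tes (-0.93) nor PG (0.76).

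Full-length reads gave another view of these transcripts, with 1 library per breed and gland and no replicates. Of 3468110 reads, 385 came from members, 194 of them from SLA-DQB1, 98 from B2M, 41 from SLA-DMB, 19 from CIITA, 13 from SLA-DOA, 11 from SLA-DMA and 9 from NLRC5. For SLA-DQB1 the BMI and DSE libraries held 4 and 10 reads in Tes, 8 and 8 in Epi, 11 and 24 in VG, 12 and 47 in PG, and 50 and 20 in BG. The highest share was 140 reads per 1000000 in DSE PG (Wilson 95% interval 105 to 186), followed by 129 in BMI BG (97.6 to 170), and the lowest was 8.79 in BMI Tes (3.42 to 22.6). Intervals cover counting error only. B2M had its highest share in DSE Epi, 90.7 reads per 1000000 (59.4 to 139), and its lowest in DSE VG, 9.43 (3.21 to 27.7). NLRC5 had no read in 6 of the 10 libraries, which allows shares up to between 6.54 and 13 reads per 1000000.

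The full-length reads and the TPM weighted the isoforms differently. PB.17448.235 held 188 of the 194 SLA-DQB1 reads but 0.329% of SLA-DQB1 TPM. It is 6396 bases long, retains introns, has a predicted coding sequence of 258 codons and was flagged for possible template switching by SQANTI3. PB.17448.236 held 4 reads but 9.49% of TPM, has a non-canonical junction and was predicted to undergo nonsense-mediated decay. None of the full-length isoforms of SLA-DQB1, with 5, 6 and 2 exons, had the 3 exons of ENSSSCT00000047302. The median isoform length in Iso-seq was 3316 bases, against 899 bases for the main SLA-DQB1 transcript. All 98 B2M reads were of PB.939.88, an isoform of 1886 bases with a retained intron that held 15.8% of B2M TPM, whereas SLA-DMA and SLA-DOA reads all matched the annotated splicing in full. The 3′ exons of the long SLA-DQB1 isoforms overlap the SLA-DQA1 model on the opposite strand, and the strand setting of the counting is not given in the sources used here. The part of length or strand in these shares was not tested.

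The class I heavy chains and other MHC genes without an SLA- name were matched to RefSeq by exon overlap, a step chosen after the files were seen. Of 17 such models tested, 9 were higher in Epi (15.1% of all genes were), 8 lower in Tes (12.7%), 10 lower in VG (30.1%), and 4 higher in each of PG (3.7%) and BG (8.45%). After size factors 14 were lower in Tes, 3 higher in Epi, none was called in VG and 4 were higher in each of PG and BG. The 4 models called in both PG and BG were those matched to SLA-DRA, SLA-DRB1 (a model and a joined model) and SLA-DQA1, all of class II. They stood at 1.72, 1.58, 1.82 and 1.99 in BG. Between the breeds 4 models were called over the 5 glands, where 0.384% of all genes were, and 3 of them were lower in BMI. ENSSSCG00000060989, matched to SLA-1, ranged from 7.67 to 91.8 TPM in BMI and from 35.8 to 243 TPM in DSE (-1.89, limma adjusted p = 7.55e-07). This model covers 44.9% of the exon bases of SLA-1 and 22.3% of those of SLA-5. A joined model over ENSSSCG00000062469 and ENSSSCG00000001229 ranged from 0 to 14.1 TPM in BMI and from 20.1 to 131 TPM in DSE (-3.99, adjusted p = 1.31e-11), while a joined model over ENSSSCG00000062469 and ENSSSCG00000052432 was higher in BMI (1.35, adjusted p = 0.000868). ENSSSCG00000001458 ranged from 0 to 0.495 TPM in BMI and from 1.99 to 29.6 TPM in DSE (-3.27, limma adjusted p = 1.03e-10). It passed the filter on low values through DSE libraries alone, so this p-value restates its level in DSE. Reads of these similar genes may be divided between models, so the values describe reads assigned.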

How the data were processed

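RNA-seq was measured in 30 libraries and Iso-seq in 10. Small RNA libraries were not used here. According to the methods, the authors prepared RNA-seq with poly-T beads, trimmed reads and ran Salmon 1.9.0 on Ensembl 107 merged with their Iso-seq isoforms (Sscrofa11.1); the labels name rRNA depletion. The deposited RNA-seq values are TPM per transcript, which keep no read depth. For Iso-seq the authors clustered the reads, aligned the clusters with GMAP by the methods (the labels name GSNAP), collapsed them and classified isoforms with SQANTI3, and deposited a raw count of full-length reads for every isoform in every library. Libraries held 231413 to 458697 such reads. Precision of TPM is thus given by the spread between libraries, and that of counts by Wilson 95% intervals. Among the deposited tables, 0 columns of per-sample values could not be mapped.

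TPM were summed by gene and fitted as log2(TPM + 1) with limma 3.58.1 (R 4.3.3; lmFit, eBayes with trend) in 1 model of 10 breed and gland groups. The fit took features reaching 1 TPM in 3 or more libraries, which were 19796 genes and 64661 transcripts. Adjustment was by Benjamini-Hochberg over all of them. Interaction used an F test of 4 contrasts at an adjusted p below 0.05. Replicate pairs correlated at 0.848 to 0.989 and none was identical. Tested on simulated data, planted differences of 2 on the log2 scale were recovered for 99.5% of 200 genes for Epi against the other glands and 89.5% between breeds in Epi, and for 99% of 200 transcripts between breeds over the 5 glands. For differences of 1.5 these shares were 98%, 75% and 95%.

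Members and lists were chosen with earlier results of these data known. Transcripts holding at least 10% of a member's TPM in a group, or called between breeds, are named, as are the 5 genes most like B2M, NLRC5, CIITA and the class II member of highest mean, and, of the lists, examples of the called genes beside their counts. Other called genes of the lists stand as counts alone. Of 25 RefSeq genes with an SLA- symbol or synonym or named B2M, 19 had exons to match. Alternatives were a pseudocount of 0.1, no filter, size factors, Ensembl transcripts alone, each gland alone, a replicate block, leaving out each library and, for Iso-seq, totals without the 100 isoforms of most reads. Python 3.11.15, pandas 2.3.3, numpy 2.4.6, scipy 1.17.1 and matplotlib 3.10.9 were used.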

Additional observations from a re-analysis of the deposited data

Results flagged for a closer look

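The difference between the breeds in SLA-DQB1 transcript ENSSSCT00000047302 varied between glands by limma's test of the interaction (adjusted p = 0.01237). The log2 difference on log2(TPM + 1), BMI minus DSE, was -2.89 in BG, -2.69 in PG, -1.84 in Epi, -1.01 in Tes and -0.74 in VG. BMI was at 0 throughout, so this variation is that of the DSE libraries, through which alone the transcript passed the filter on low values.

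The difference between the breeds in ENSSSCG00000001458, which lies at chr7:24993912-25001567 and was examined after its values were seen, also varied between glands (interaction adjusted p = 0.03989). It was -4.48 in PG, -4.22 in BG, -3.52 in Epi, -2.08 in Tes and -2.05 in VG, lower in BMI in all 5. BMI ranged from 0 to 0.495 TPM over the 15 libraries, so the variation is mainly that of the DSE libraries, and the values depend on the pseudocount. The model passed the filter on low values through the DSE libraries alone.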

How the results depend on the processing

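No called member difference between glands reversed in any of 630 refitted values, and 83 of 90 kept their call under the alternatives that keep all libraries. In VG 0 of 7 members were called after size factors. In PG the 2 calls became 5 with a pseudocount of 0.1, 4 after size factors and 1 with Ensembl transcripts alone. Leaving out single libraries gave 1 to 4 calls in PG, 1 to 2 in Epi and 4 to 5 in VG. With a pseudocount of 0.1 the member transcripts called between breeds over the 5 glands became 2, with B2M transcript ENSSSCT00000084189 added. The breed difference of CIITA, which was not called, turned sign to -0.0021 with a pseudocount of 0.1 and to -0.1976 with Ensembl transcripts alone. It ran from -0.1244 to 0.1026 when single libraries were left out, and that of SLA-DOA from -0.1841 to 0.0742. The summed TPM in VG was 881 for class I and 112 for class II after size factors, against 556 and 73 with TPM as deposited. The cause of these moves was not tested.

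Over all genes, the main counts of calls were 9373 in Tes, 4290 in Epi, 6535 in VG, 3270 in PG and 4045 in BG. With a pseudocount of 0.1 they were 6515 in Epi, 10410 in VG, 5932 in PG and 6779 in BG. With Ensembl transcripts alone they were 5567 in Tes, 2598 in Epi, 3492 in VG, 1711 in PG and 2330 in BG. After size factors 3814 were called in VG. Between breeds 947 were called in Tes, 139 in Epi, 97 in VG, 118 in PG, 59 in BG and 76 over the 5 glands. Each gland fitted alone gave 39 in Tes, 0 in Epi, 3 in VG, 17 in PG and 5 in BG. A pseudocount of 0.1 gave 540 in Tes, 158 in VG and 307 over the 5 glands. Ensembl transcripts alone gave 378 in Tes, 88 in Epi, 25 in VG and 56 in PG, and size factors 160 in VG. Leaving out single libraries moved the breed counts to between 531 and 1599 in Tes, 81 and 287 in Epi, 54 and 164 in VG, 66 and 156 in PG, and 39 and 72 in BG. The share of higher calls moved with size factors from 69.7% to 48.3% in Epi and from 8.94% to 37.6% in VG. Between breeds it moved from 64.9% to 38.8% in VG and from 16.9% to 50.4% in PG.

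A check of deviations did not settle whether replicate numbers pair the libraries. Deviations of same-numbered libraries of both breeds in a gland correlated above 0.1 in 4 of 15 pairs (median -0.0419). For the same number and breed in different glands it was 21 of 60 (median 0.0408), against 18 of 120 for different numbers (median -0.0261). With the replicate block, members called were 6 in Tes, 1 in Epi, 5 in VG, 2 in PG and 4 in BG, with 1 transcript between breeds, so no count of calls moved.

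TPM carry no depth, so low values such as those of NLRC5 have no counting error here. Full-length reads were too few, at 9 to 41 for 5 of the 7 members, to compare glands.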
